A study of Gallus gallus with 30 samples.

Results

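Granulosa cell layers of all preovulatory chicken follicles were compared with those of all prehierarchical follicles, with every library of each class in the comparison. The preovulatory class held 15 libraries of 5 stages (F5, F4, F3, F2 and F1) and the prehierarchical class 12 libraries of 4 stages (SWF, LWF, SYF and LYF, the small white, large white, small yellow and large yellow follicles), with 3 libraries per stage. These were 27 of the 30 libraries of the series, and the other 3 came from postovulatory follicles (POF). All follicles were from Luhua hens at 31 weeks of age, without a treatment, and RNA was sequenced as strand-specific, rRNA-depleted libraries. Members were chosen by the stage in their sample labels and no measured value was used. The values were FPKM (fragments per kilobase of transcript, scaled to the mapped fragments of the library). Read counts per gene were not available, and no interval that needs counts is given. In 6 libraries LWF and SYF are swapped between title and column name; both are prehierarchical stages, so the class of no library depends on this. Stage values follow the column names, and by the titles the LWF and SYF values would change places. The labels call the 3 libraries of a stage biological replicates but do not say which came from the same hen, so p-values measure the spread between these libraries. Follicle stages follow each other in 1 ovary, and the class difference is also a difference in follicle size and time.

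In the ovary of a laying hen, small follicles grow slowly as a prehierarchical pool. A follicle is selected from this pool into the preovulatory hierarchy, fills rapidly with yolk and moves up in rank until it is the largest, F1, which ovulates next. Granulosa cells form the layer around the oocyte that makes progesterone in the largest follicles and that makes proteins of the egg's inner coat. Only 32 of the 23910 genes in the file could be given a symbol, from the names that the study pairs with identifiers. No member of the marker lists drawn up for granulosa, theca and blood cells was among them, so the labelled cell layer could not be checked against its markers. In such bulk samples, fewer cells of a type and less RNA per cell cannot be told apart.

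The scale of the libraries differed between the classes, and this touches every result. The 16 mitochondrially encoded genes took 18.1% to 26.7% of summed FPKM in preovulatory libraries (median 21.3%), against 23.1% to 49.5% in prehierarchical libraries (median 27.9%). The means were 21.5% ± 2.21 in preovulatory (SD, n = 15) and 30.2% ± 7.60 in prehierarchical libraries (SD, n = 12), and the difference of -8.66 percentage points passed a two-sided permutation test over libraries (p = 1e-05, the smallest that 100000 resamples can give; p = 5e-05 after Benjamini-Hochberg adjustment over 5 library values) and an exact permutation test over the 9 stage means (p = 0.00794, the smallest that 126 arrangements allow; adjusted p = 0.0397). Genes above 0.5 FPKM numbered 11381 ± 369 in preovulatory and 12467 ± 760 in prehierarchical libraries (SD, permutation test, adjusted p = 5e-05). The upper quartile over the genes kept was 16.8 ± 2.05 FPKM in preovulatory and 21.0 ± 2.86 FPKM in prehierarchical libraries (SD, permutation test, adjusted p = 0.000467). Neither of these 2 values passed with the stage means as units (exact permutation test, adjusted p = 0.0794 for both), and summed FPKM did not differ beyond its spread (526724 ± 24156 in preovulatory and 529023 ± 38654 in prehierarchical libraries, SD, permutation test, adjusted p = 0.872).

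LYF replicate 1 stood apart from the other prehierarchical libraries, with a mitochondrial share of 49.5%, an upper quartile of 14.2 FPKM and summed FPKM of 642207. Without it the mitochondrial difference was -6.90 percentage points (adjusted p = 3.33e-05, permutation test). The share of summed FPKM in the 100 highest genes was 50.4% ± 5.03 in preovulatory and 46.3% ± 7.45 in prehierarchical libraries (SD) and did not pass (permutation test, adjusted p = 0.125), but it did without LYF replicate 1, where it was 50.4% in preovulatory and 44.5% in prehierarchical libraries (adjusted p = 0.00579). The gene ZP3 alone took 1.88% to 16.6% of summed FPKM in preovulatory libraries, against 0.15% to 2.40% in prehierarchical libraries. Shares of a common sum are tied, and in preovulatory libraries the share of ZP3 was larger while the mitochondrial share was smaller. How these shares bear on the values of other genes was not tested. Upper quartile and class moved together. Gene counts and fold changes are therefore given for FPKM as deposited and, for most, also after upper quartile scaling. The comparison of F5 with LYF alone is on the deposited scale. Upper quartile scaling divides each library by its own upper quartile. The median log2 fold change of all genes kept was -0.28 as deposited and -0.08 after this scaling.

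**Figure D1:**
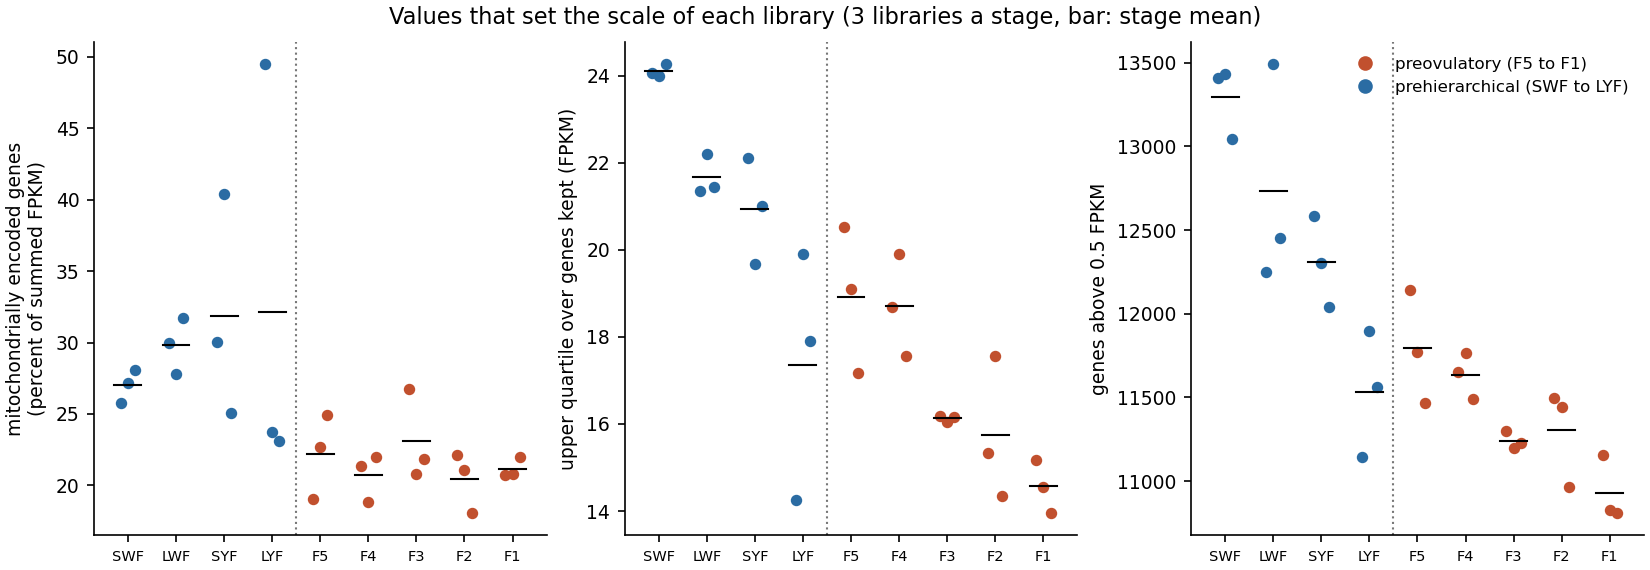
Each point is a library, by stage on the horizontal axis, and the bars are stage means of 3 libraries. The panels give the mitochondrial share of summed FPKM (percent), the upper quartile over genes kept (FPKM) and the number of genes above 0.5 FPKM; LYF replicate 1 lies at 49.5% in the first panel, and upper quartile and gene number are lower in the preovulatory libraries on the right of the dotted line, with overlap between the classes.

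Of 15197 genes kept (over 0.5 FPKM in 2 or more libraries of 1 stage), 28 separated the classes completely. For these 28 genes (0.184% of the genes kept), every preovulatory library lay above or below every prehierarchical library. Preovulatory libraries were higher for 11 of them (0.0724%) and lower for 17 (0.112%). Of the 28, 2 had a symbol, ND4L and ND4. All 28 also passed the limma test of class means given further on, which selection on the same libraries makes nearly certain. The distance between the classes was small in each. The gap, taken as log2(FPKM + 1) of the nearest libraries on either side, was at most 0.30 for the genes higher in preovulatory libraries (median 0.04) and at most 0.20 for the genes lower (median 0.08), while their log2 fold changes between class means ran between 0.74 and 4.15 and between -3.52 and -0.71. No gene was above 0.5 FPKM in every preovulatory library and in none of the prehierarchical libraries, and none was the other way round.

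Of the separating genes without a symbol, the 2 per direction described here are those with the largest gaps among genes that also separated after upper quartile scaling and averaged 5 FPKM or more in the higher class. The largest gap of all 28 belonged to ENSGALG00000015284, a gene for which no symbol was paired with its identifier. Its lowest, median and highest values were 27.8, 70.3 and 180 FPKM in preovulatory libraries, against 6.54, 13.3 and 22.4 FPKM in prehierarchical libraries. The lowest preovulatory library was F5 replicate 2 and the highest prehierarchical library LYF replicate 3, which are the stages that meet at the class boundary. Its stage means were 10.8 in SWF, 13.4 in LWF, 11.7 in SYF and 17.8 in LYF, followed by 35.2 (F5), 53.1 (F4), 97.4 (F3), 159 (F2) and 149 FPKM (F1). The gene was therefore nearly level across the first 3 prehierarchical stages and kept climbing inside the preovulatory class as far as F2. The log2 fold change was 2.60 ± 0.29 (SE, limma, adjusted p = 6.3e-07), and 2.90 after upper quartile scaling.

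ENSGALG00000010619, also without a symbol, showed the smallest log2 fold change among the 11 separating genes that were higher. Its lowest, median and highest values were 19.1, 22.0 and 31.1 FPKM in preovulatory libraries, against 10.4, 13.8 and 15.6 FPKM in prehierarchical libraries. Stage means lay between 12.8 and 14.1 FPKM in the 4 prehierarchical stages and between 20.5 and 27.7 FPKM in the 5 preovulatory stages. The extremes here did not sit at the boundary, since F3 replicate 1 was the lowest preovulatory and SWF replicate 1 the highest prehierarchical library. The log2 fold change was 0.74 ± 0.08 (SE, limma, adjusted p = 6.3e-07), and 1.03 after upper quartile scaling.

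Among the genes lower in preovulatory libraries, ENSGALG00000005208 had 5.17, 8.09 and 15.3 FPKM as its lowest, median and highest preovulatory values, against 17.3, 29.4 and 55.1 FPKM in prehierarchical libraries. It was not highest at the start of the series: stage means were 25.4 in SWF, 48.7 in LWF, 43.8 in SYF and 22.3 in LYF, and then 13.9 (F5), 12.3 (F4), 8.52 (F3), 6.75 (F2) and 6.47 FPKM (F1). Its log2 fold change was -1.73 ± 0.19 (SE, limma, adjusted p = 5.4e-07), and -1.44 after upper quartile scaling. ENSGALG00000030773 had 0.836, 1.90 and 6.56 FPKM in preovulatory libraries, against 7.14, 12.9 and 21.3 FPKM in prehierarchical libraries, with a log2 fold change of -2.06 ± 0.20 (SE, limma, adjusted p = 7.2e-08), and -1.81 after upper quartile scaling. Its stage mean was 10.2 FPKM in LYF and 4.42 FPKM in F5. All 4 of these identifiers separated the classes after upper quartile scaling too, as their selection required. The gap of ENSGALG00000030773 on that scale was 0.01 in log2. Each of the 4 was called with stage means as units, which separation of all libraries favours. With equal sums over nuclear genes ENSGALG00000010619 was under the fold threshold (log2 fold change 0.57) and was not called, while the others were.

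**Figure D2:**
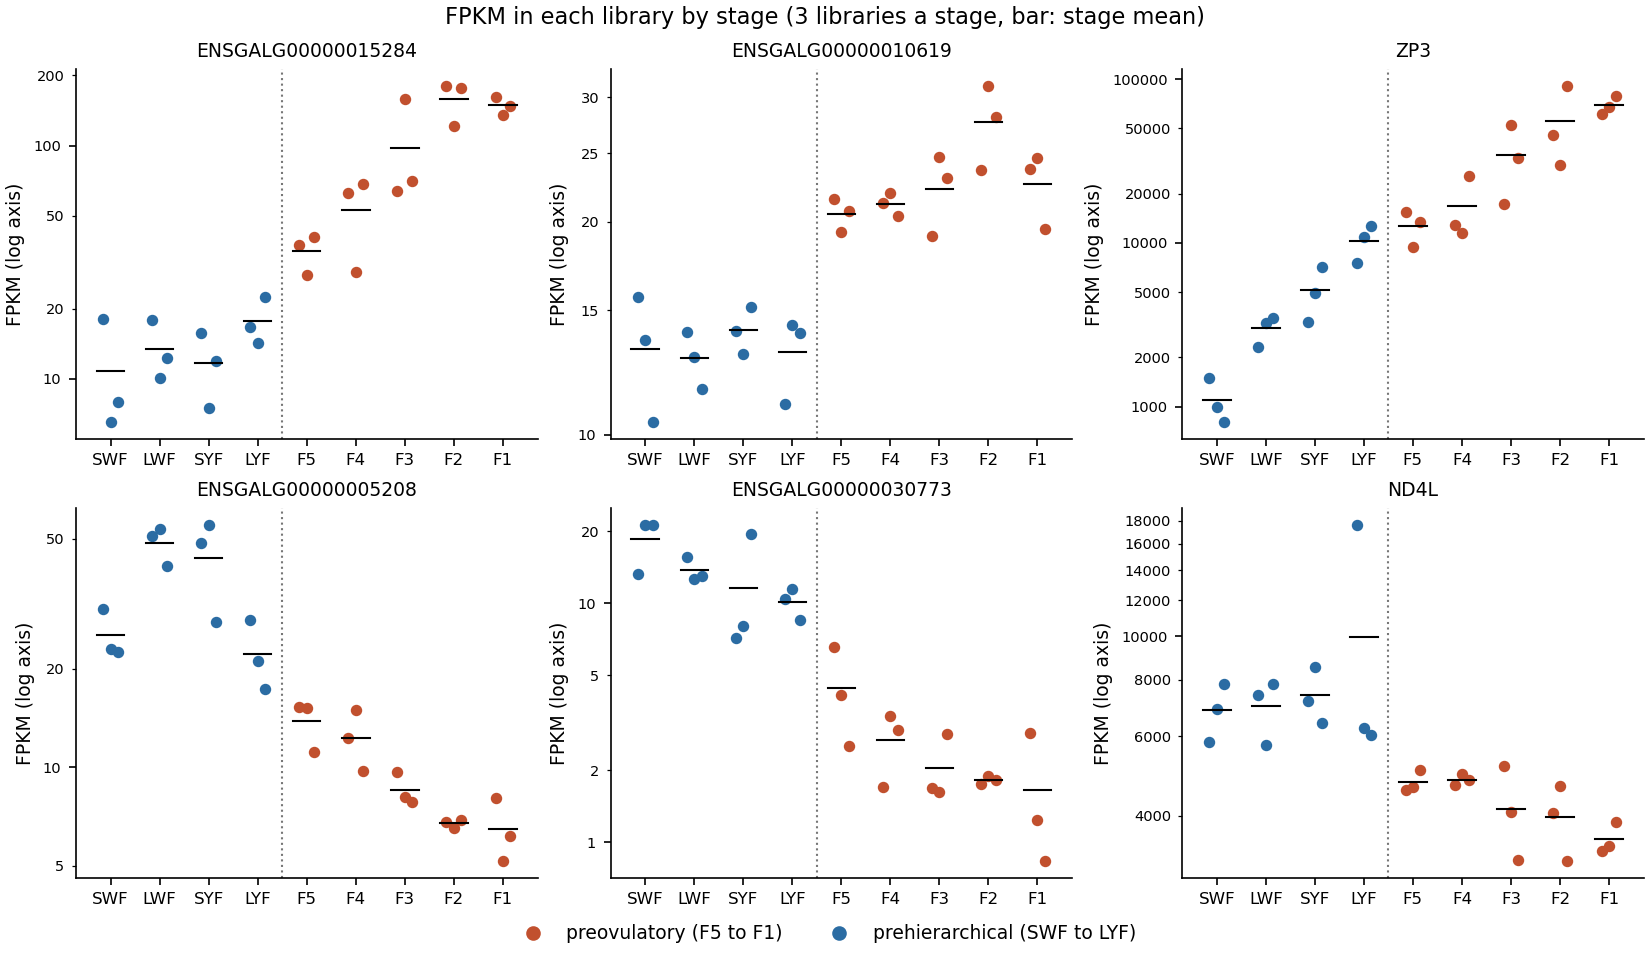
FPKM (log axis) in each of the 27 libraries by stage, for the 4 identifiers without a symbol described in the text, for ZP3 and for ND4L. Points are libraries and bars are stage means; a horizontal line can be drawn between the classes in every panel but that of ZP3, where F5 and F4 overlap LYF.

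The number of separating genes depended on the scaling less in size than in membership. After upper quartile scaling 34 genes separated (0.224%; 15 higher and 19 lower in preovulatory libraries), and 14 of these were among the 28, 6 higher and 8 lower. ND4L and ND4 were not among the 14. Most genes with a large difference between class means still overlapped. Of 93 genes with an absolute log2 fold change over 3, 2 separated the classes (2.15%, against 0.184% of all genes kept), and of 84 such genes after upper quartile scaling, 4 did (4.76%, against 0.224%).

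Many more genes came close. With the best cutoff for each gene, 297 genes put a lone library on the wrong side, so that 325 genes (2.14%) misplaced at most 1 of 27 libraries, 1259 (8.28%) at most 2 and 6310 (41.5%) at most 5. After upper quartile scaling the numbers were 399 (2.63%), 1240 (8.16%) and 5406 (35.6%). Of the 297, the misplaced library was from LYF for 214 genes (72.1%) and from F5 for 58 (19.5%), and for 158 it was LYF replicate 3. Every other stage held the misplaced library for at most 15 genes. Where 2 cutoffs did equally well the lower was used, so for a swapped pair of libraries only 1 of the pair was counted as misplaced. Leaving libraries out largely restates this split, since a gene with a lone misplaced library separates once that library is gone. Without LYF replicate 3, 195 genes separated the classes (91 higher and 104 lower in preovulatory libraries). Without LYF replicate 1, 80 genes did (12 higher and 68 lower). The count was 70 without F5 replicate 2, 48 without F5 replicate 1 and between 28 and 41 without any of the other 23 libraries. Leaving out the whole LYF stage gave 1075 separating genes (7.07%; 166 higher and 909 lower), against 139 without F5 and 51 without F4. Dropping a library can only add separating genes, so these counts describe where the overlap lay and are no further test.

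**Figure D3:**
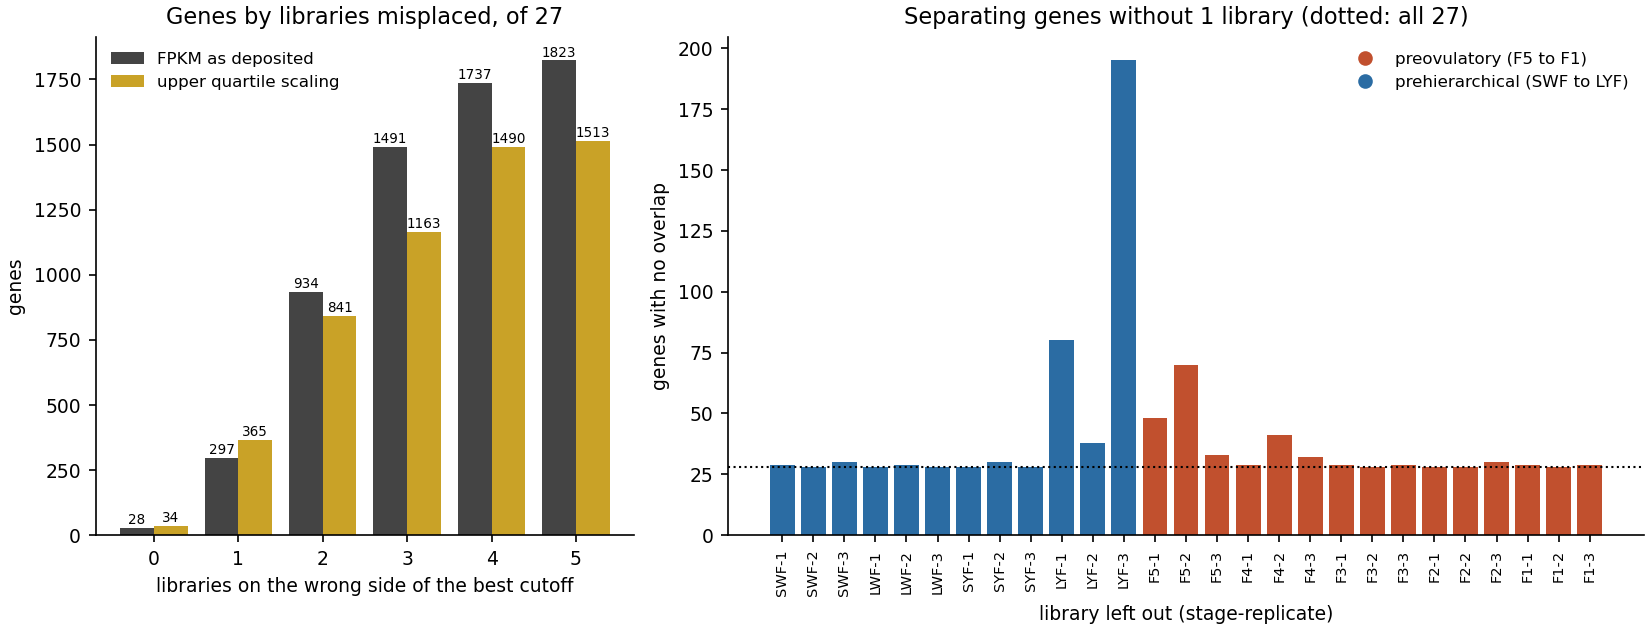
Left, number of genes by how many of the 27 libraries fall on the wrong side of the best cutoff, for FPKM as deposited and after upper quartile scaling (28 and 34 genes at 0). Right, number of separating genes when the library named on the horizontal axis is left out; the dotted line is the 28 genes of all 27 libraries, and the bars stand out for LYF replicates 1 and 3 and F5 replicates 1 and 2.

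Genes whose class means differed were far more numerous. In a limma fit of log2(FPKM + 1) over the 27 libraries, 5006 genes (32.9% of 15197) passed an adjusted p of 0.05 together with a 1.5-fold difference in FPKM + 1, with 1132 higher (7.45%) and 3874 lower (25.5%) in preovulatory follicles. The balance of directions moved with the scaling. Upper quartile scaling gave 4123 genes (27.1%), 1781 higher and 2342 lower, and quantile normalization gave 3940 (25.9%), 1922 higher and 2018 lower, so that the share of higher genes among those called was 22.6% as deposited, 43.2% and 48.8% after the 2 scalings. No gene was called in opposite directions as deposited and after upper quartile scaling, and 3474 were called in the same direction in both (1132 higher and 2342 lower).

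Libraries of a stage were more alike than libraries of a class, with an estimated within-stage correlation of 0.40 across genes (limma). With stage as a random block 4101 genes were called (27%). With the 9 stage means as units the count was 2251 (14.8%; 656 higher and 1595 lower), and 2107 (13.9%; 1003 higher and 1104 lower) with stage means after upper quartile scaling. On stage means, 2538 genes (16.7%) had all 5 preovulatory stages on the same side of all 4 prehierarchical stages, 795 higher and 1743 lower in preovulatory follicles. Among the 27 libraries, the 5 that were sequenced with the higher base quality were all preovulatory (F4, F3 and F2 replicate 3, and F1 replicates 2 and 3). Without them 4139 genes were called and 45 separated the classes.

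At the class boundary itself no gene passed. F5 compared with LYF alone, 3 libraries each, gave 0 genes at an adjusted p under 0.05 and 447 at an unadjusted p under 0.05 (limma). The 447 are a smaller share of the 15197 genes than a threshold of 0.05 admits where nothing differs. The 3 F5 and 3 LYF libraries did not overlap for 1076 genes (7.08%), 882 higher and 194 lower in F5. With 3 libraries a side, complete non-overlap is common where nothing differs. These counts are therefore no evidence of a change at the boundary, and none of its absence. The LYF libraries here included replicate 1, which stood apart in scale. F5 and LYF alone were not compared without it or after another scaling.

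The genes called differed in how their stage means travelled between the classes. Each stage mean was placed on a scale on which the average of the 4 prehierarchical stages was 0 and the average of the 5 preovulatory stages was 1. For genes called higher in preovulatory follicles the median place was -0.14 in SWF, -0.14 in LWF, 0.00 in SYF, 0.26 in LYF, then 0.68 (F5), 0.82 (F4), 1.10 (F3), 1.19 (F2) and 1.23 (F1). For genes called lower it was -0.44 in SWF, -0.16 in LWF, 0.02 in SYF, 0.64 in LYF, then 0.65 (F5), 0.75 (F4), 1.09 (F3), 1.15 (F2) and 1.33 (F1). LYF thus lay on the prehierarchical side of the midpoint for most genes called higher and on the preovulatory side for 65.2% of the genes called lower (2524 of 3874, against 29.6%, 335 of 1132, of the genes called higher). The step between LYF and F5 ran in the direction of the class difference for 88.5% of the genes called higher and for 48.6% of the genes called lower. For the genes called after upper quartile scaling, on that scale, these shares were closer, at 77.8% and 60.5%. The calls and the places used the same libraries, so these shares are a description.

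The place of LYF rested partly on individual libraries of that stage. Without LYF replicate 1 the median place of LYF was 0.46 for genes called higher and 0.59 for genes called lower. Without LYF replicate 3 it was 0.09 and 0.61, so the libraries of LYF differed widely for genes called higher. After upper quartile scaling with all libraries it was 0.39 and 0.56 for the genes called on that scale. The step that was most often the largest was that from the mean of LWF and SYF to LYF for genes called lower (40.1%, 1552 genes). For these genes the step from SWF to the mean was the largest for 27.1% and that between F4 and F3 for 20.8%. The step between LYF and F5 was the largest for 2.45% of them (95 genes). Steps into and out of the mean of LWF and SYF cover more of the series than a step between neighbouring stages. Such a ranking therefore favours them. For genes called higher, the step to LYF was the largest for 28.4% (322 genes) and that between LYF and F5 for 19.9% (225 genes), but for 8.25% (147 genes) of those called higher after upper quartile scaling. Among the complete separators the step between LYF and F5 was the largest for 7 of the 11 higher and 5 of the 17 lower genes, a property that their selection favours. For the 17 lower genes the step from the mean of LWF and SYF to LYF was the largest equally often (5 genes).

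**Figure D4:**
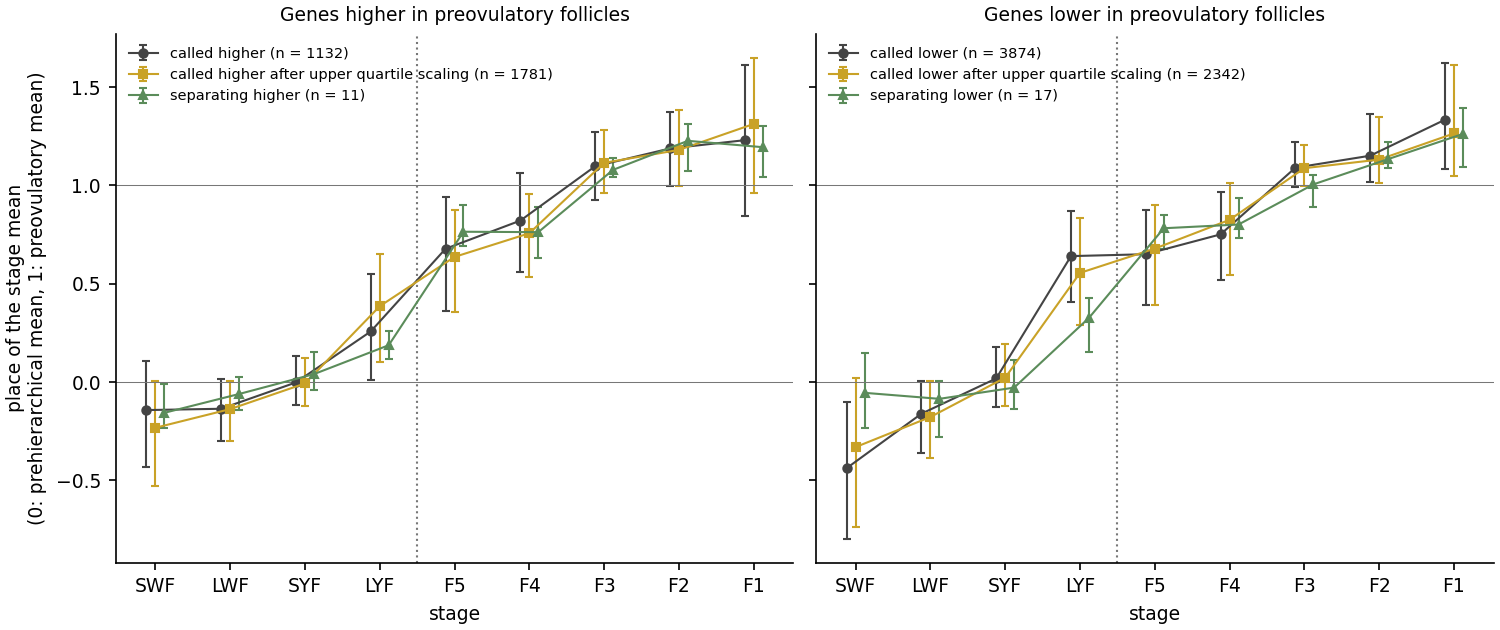
Median place of the stage means (vertical axis, 0 for the prehierarchical and 1 for the preovulatory average) by stage for the genes called, the genes called after upper quartile scaling and the complete separators. Bars span the 25th to 75th percentile of genes; for genes called lower the median is already at 0.64 in LYF, against 0.26 for genes called higher.

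Among the 32 genes with a symbol, which the study chose because they were among the 100 highest of every stage in these same libraries, 6 were called higher in preovulatory follicles (ZP3, RPS10, RPL6, RPL23, RPLP1 and RPS3A), 5 lower (ND3, ND4L, ND4, CYTB and GAPDH) and 21 did not pass. Over all genes kept the shares were 7.45% higher and 25.5% lower. After upper quartile scaling the same 6 were called higher, TXN and EEF1A were called higher as well, and 0 were called lower. No list fixed for steroid synthesis, gonadotropin receptors, the cell cycle or extracellular matrix had more than 1 member with a symbol, and they are not described as groups.

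ZP3 (ENSGALG00000001559, chromosome 10) encodes a glycoprotein of the inner coat of the egg, which granulosa cells make in birds. It had the largest fold of the 32. Its lowest, median and highest values were 9385, 29862 and 90654 FPKM in preovulatory libraries, against 809, 3398 and 12636 FPKM in prehierarchical libraries. Stage means increased at each step, by the column names, with 1101 in SWF, 3006 in LWF, 5142 in SYF, 10340 in LYF, then 12769 (F5), 16692 (F4), 34339 (F3), 55373 (F2) and 69342 FPKM (F1). By the titles, in which LWF and SYF are exchanged, the step between those 2 stages would be downward. The classes overlapped in libraries of LYF, F5 and F4. F5 replicate 2 and F4 replicate 2 had 9385 and 11522 FPKM and lay under LYF replicate 3, and the other 13 of 15 preovulatory libraries lay above every prehierarchical library. The log2 fold change was 3.04 ± 0.48 (SE, limma, adjusted p = 2.1e-05), and 3.36 ± 0.59 after upper quartile scaling. With stage means as units it passed on the deposited scale (adjusted p = 0.034) and missed after upper quartile scaling (adjusted p = 0.058, limma). F5 and LYF alone differed by 0.31 ± 1.10 on the log2 scale (limma SE, which also draws on the spread of other genes of like level). Libraries ran from 9385 to 15512 FPKM in F5 and from 7537 to 12636 FPKM in LYF.

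All 5 genes of cytosolic ribosomal proteins were called higher, with a median log2 fold change of 0.83 (1.15 after upper quartile scaling), against a median of -0.28 over all genes kept (-0.08 after upper quartile scaling). With stage as a random block 3 of the 5 passed (RPL6 had an adjusted p of 0.072 and RPS3A of 0.11, limma), and with stage means as units 4 did (RPS3A had an adjusted p of 0.06). The direction was the same under every scaling run, but 0 of the 5 passed after quantile normalization, where the median was 0.38, and 3 passed when libraries were brought to equal sums over nuclear genes. Of all 15197 genes kept, 1132 (7.45%) were called higher as deposited, 849 with the random block and 656 with stage means. The numbers were 1922 after quantile normalization and 886 with equal sums over nuclear genes. RPS10 (small subunit) had 714, 926 and 1816 FPKM as its lowest, median and highest preovulatory values, against 270, 491 and 1570 FPKM in prehierarchical libraries, with a log2 fold change of 1.02 ± 0.21 (SE, limma, adjusted p = 0.00027). RPL6 (large subunit) had 373, 661 and 1547 FPKM in preovulatory libraries, against 143, 405 and 1143 FPKM in prehierarchical libraries, with a log2 fold change of 0.93 ± 0.25 (SE, limma, adjusted p = 0.0029). All preovulatory libraries were above the prehierarchical median for RPS10, RPL23, RPLP1 and RPS3A, and 14 of 15 were for RPL6.

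LYF replicate 3 was the highest prehierarchical library for each of these 5 genes and was the library on the wrong side for RPS10. For the other 4 genes, libraries of SWF, LWF or SYF also lay above the lowest preovulatory library. The 3 LYF libraries had 320, 547 and 1570 FPKM of RPS10 and 143, 360 and 1143 FPKM of RPL6, so this stage spanned most of the prehierarchical range. The level did not keep increasing with rank: stage means of RPS10 were 1021 (F5), 1060 (F4), 1393 (F3), 892 (F2) and 872 FPKM (F1). RPS3A passed by little (0.67 ± 0.21, SE, limma, adjusted p = 0.009) and was not called without LYF replicate 1 (0.58, adjusted p = 0.017, under the fold threshold). Ribosomal protein genes have near-identical copies in many genomes, and how reads were shared between such copies is not given in the sources used here.

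The 13 mitochondrially encoded genes with a symbol, which encode subunits of the respiratory chain and ATP synthase, all had a negative log2 fold change on the deposited scale (median -0.54, against -0.28 over all genes kept), and 4 of them passed. Over all genes kept, 25.5% were called lower on that scale. After upper quartile scaling the median was -0.22, ND1 and COX1 turned to 0.10 and 0.01, and 0 passed. With stage means as units 0 passed either. Other scalings went the other way. Quantile normalization called 5 of the 13 lower (median -0.54), against 2018 of all 15197 genes. Equal sums over nuclear genes called 8 lower (median -0.71), against 5129 of all 15197 genes. Dividing by the nuclear sum largely restates the lower mitochondrial share of the preovulatory libraries, so this count is no separate evidence. ND4L and ND4, subunits of complex I whose reading frames overlap in vertebrate mitochondrial genomes, were the 2 separators with a symbol. ND4L had 3178, 4571 and 5144 FPKM as its lowest, median and highest preovulatory values, against 5735, 7044 and 17609 FPKM in prehierarchical libraries, and a log2 fold change of -0.82 ± 0.20 (SE, limma, adjusted p = 0.0012). The highest of these libraries was LYF replicate 1, and the lowest LYF library had 6026 FPKM. ND4 had 3608, 4416 and 5388 FPKM in preovulatory libraries, against 5453, 6779 and 17037 FPKM in prehierarchical libraries. Its gap was 0.02 on the log2 scale. After upper quartile scaling the log2 fold changes were -0.51 (adjusted p = 0.11, limma) for ND4L and -0.39 (adjusted p = 0.22, limma) for ND4, and the classes overlapped for both.

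CYTB, the mitochondrially encoded subunit of complex III, misplaced 1 library: F3 replicate 1 at 8379 FPKM was above SWF replicate 1 at 8314 FPKM. Its log2 fold change was -0.63 ± 0.22 (SE, limma, adjusted p = 0.019), and it was not called without LYF replicate 1 (-0.51, adjusted p = 0.026, under the fold threshold). ND3, another complex I subunit, had a log2 fold change of -0.83 ± 0.20 (SE, limma, adjusted p = 0.0016), with 10 of 15 preovulatory libraries below every prehierarchical library. None of the 5 subunits of cytochrome oxidase and ATP synthase passed, with log2 fold changes between -0.54 and -0.31. ATP6 was the most uneven of them, because 1 SWF library had 18810 FPKM and 1 F1 library 14247 FPKM while the class medians were 1199 FPKM in preovulatory and 1489 FPKM in prehierarchical libraries. LYF replicate 1 was the highest prehierarchical library for 11 of the 13 genes, all but COX3 and ATP6.

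GAPDH, a glycolytic enzyme, was called lower but did not separate the classes. It had 416, 691 and 922 FPKM in preovulatory libraries, against 356, 945 and 2904 FPKM in prehierarchical libraries, and SWF alone averaged 2510 FPKM while LYF averaged 645 and F5 756 FPKM. The log2 fold change of -0.61 ± 0.24 (SE, limma, adjusted p = 0.031) became -0.20 without the SWF stage (adjusted p = 0.35) and -0.30 after upper quartile scaling (adjusted p = 0.25). Other scalings made it larger, at -1.08 after quantile normalization (limma, adjusted p = 0.0028) and -0.79 with equal sums over nuclear genes (limma, adjusted p = 0.0042). ACTB, cytoplasmic actin, had the same outline with 2457 FPKM in SWF, and its log2 fold change of -0.51 was under the fold threshold. PPIB, a protein-folding enzyme of the endoplasmic reticulum, was under it as well (-0.53 ± 0.12, SE, limma, adjusted p = 0.00073), although 15 of 15 preovulatory libraries were below the prehierarchical median and 3 libraries were misplaced. Like GAPDH, ACTB and PPIB were called lower after quantile normalization and with equal sums over nuclear genes.

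Among genes that passed on 1 scale, TXN (thioredoxin, a redox protein) had a log2 fold change of 0.50 as deposited and 0.82 after upper quartile scaling (adjusted p = 0.0024, limma). EEF1A (the translation elongation factor that brings tRNAs to the ribosome) had 0.50 and 0.82 (adjusted p = 0.0044 after scaling). Neither was called after quantile normalization (0.13 for TXN, 0.08 for EEF1A) or with equal sums over nuclear genes (0.33 for each). TXN averaged 1291 FPKM in LYF, above its means in F4, F2 and F1 but below F5 and F3. EEF1A averaged 1827 FPKM in SWF, above its means in F5, F2 and F1 but below F4 and F3. SPARC, an abundant protein of the extracellular matrix, had 3458, 7042 and 9183 FPKM in preovulatory libraries, against 3285, 6718 and 10362 FPKM in prehierarchical libraries, and a log2 fold change of 0.09 ± 0.25 (SE). Its stage means rose from 3409 FPKM in SWF to 9459 FPKM in LYF and fell to 4433 FPKM in F1. A difference of class means does not show such a course. FTH1 (ferritin heavy chain), CTSB (cathepsin B), EIF4A2 (a translation initiation helicase) and APLP2 had log2 fold changes between -0.05 and 0.14 with 9 or 10 of 27 libraries misplaced. CTSB also rose and fell, with stage means of 546 FPKM in SWF, 1552 FPKM in LYF and 818 FPKM in F1. CALR and HSP90AA1, which help proteins to fold, had 0.22 and -0.33 as deposited and 0.54 and -0.01 after upper quartile scaling, under the fold threshold on both scales. HSP90AA1 was called lower after quantile normalization (-0.70, limma, adjusted p = 0.0024) but not with equal sums over nuclear genes (-0.50). CALR was called with neither of these (-0.20 and 0.05).

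**Figure D5:**
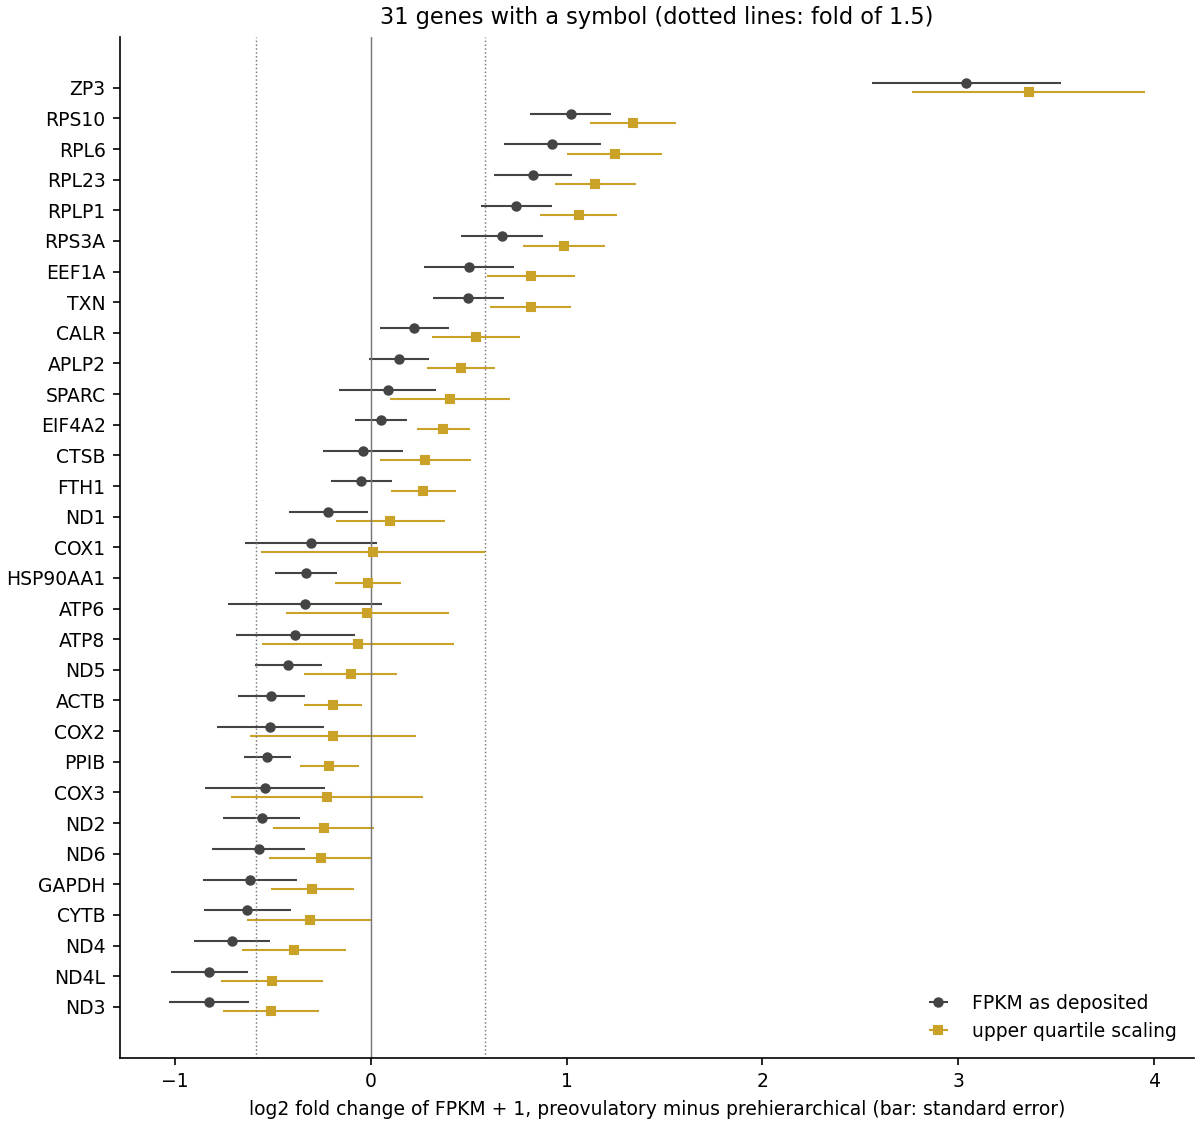
Log2 fold change of FPKM + 1 (preovulatory minus prehierarchical) with its standard error for 31 of the 32 genes with a symbol, as deposited and after upper quartile scaling; dotted lines mark a fold of 1.5 either way. ZP3 lies at 3.04, the ribosomal protein genes between 0.67 and 1.02, and the scaling moves every gene to the right.

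The postovulatory libraries entered neither class. For most separating genes higher in preovulatory libraries they lay on the prehierarchical side, and for the lower genes they were mixed. Of the 11 genes higher in preovulatory libraries, all 3 POF libraries lay on the prehierarchical side for 7, on the preovulatory side for 1 and were split for 3. Of the 17 lower genes the numbers were 5, 4 and 8. After upper quartile scaling, POF replicates 1, 2 and 3 lay on the preovulatory side for 5, 3 and 5 of the 15 higher genes. For the 19 lower genes on that scale the numbers were 9, 10 and 12. ENSGALG00000015284 averaged 9.09 ± 1.32 FPKM in POF (SD, n = 3), below the average of every prehierarchical stage. ENSGALG00000030773 averaged 92.0 ± 137 FPKM in POF (SD, n = 3) with a highest library of 250 FPKM, so its POF libraries differed widely from each other. ZP3 was 341, 1182 and 9970 FPKM in the 3 POF libraries, the lowest under and the other two within the prehierarchical range.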

How the data were processed

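Granulosa cell layers of 10 follicle stages were sequenced with 3 libraries per stage. Per the study's methods and the submitters' processing notes, the authors removed low-quality and rRNA reads, aligned to GRCg6a with HISAT2 2.1.0 and quantified genes with StringTie 1.3.3; the deposited values are FPKM per gene, which are scaled to each library's mapped fragments and to gene length. FPKM keeps no counts per gene, so count tests were not used and precision rests on the spread between libraries.

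Genes over 0.5 FPKM in 2 or more libraries of 1 stage were kept (15197 of 23910; 792 passed only through POF and 14 were at 0 in all 27 libraries). The 15 preovulatory and 12 prehierarchical libraries were compared on log2(FPKM + 1), a scale that understates the change of low genes, with limma 3.58.1 in R 4.3.3 (trend of the spread with expression, Benjamini-Hochberg adjustment over all genes kept). Calls needed an adjusted p below 0.05 together with a 1.5-fold difference in FPKM + 1. A gene separated the classes when no preovulatory library overlapped a prehierarchical library in FPKM. The best cutoff of a gene is the level that puts the fewest libraries on the wrong side, and the lowest such level where several tied. Library values were compared with two-sided permutation tests (100000 resamples over libraries, all 126 arrangements of stage means). The fit was tested on simulated data with independent spread between libraries. That setting lacks the within-stage correlation of 0.40, so it does not cover the effect of stage on the calls.

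Genes were named by fixed rules: called genes with a symbol and 5 FPKM or more on average in the higher class, ranked by their gap; called members of the gene lists; the genes for which the study gives an identifier; and, without a symbol, at most 2 identifiers per direction by the same ranking, with genes that also separated after upper quartile scaling first. Symbols came from 36 identifiers that the study pairs with names, 32 of them with a symbol (1 of these is not reported here); 0 identifiers matched the RefSeq gene table, so no gene position or sequence is given. Members and lists were chosen with earlier results of these data known. The alternatives were other scalings (upper quartile, quantile, equal sums over nuclear genes), filters, pseudocounts, fold thresholds, stage means, stage as a random block, replicate number as a block, base quality group, and leaving out each library or stage.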

Additional observations from a re-analysis of the deposited data

How the results depend on the processing

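The count of genes called (5006) stayed within 1.5 times under most alternatives and was between 4707 and 5429 when each library was left out in turn. It moved to 2251 with the 9 stage means, 2107 with stage means after upper quartile scaling, 2228 with a fold over 2, 8417 without a fold threshold and 0 for F5 against LYF alone. The count of complete separators (28) was between 28 and 195 when each library was left out, and moved to 45 with equal sums over nuclear genes, 45 without the libraries of higher base quality, 2538 with stage means, 2775 with stage means after upper quartile scaling, 1076 for F5 against LYF alone, 1075 without stage LYF, 139 without F5 and 51 without F4. Alternatives chosen after seeing the data gave 60 without LYF replicate 1 after upper quartile scaling, 587 without LYF replicates 1 and 3, and 501 with both changes. Fewer libraries or units make separation easier by construction; for the other shifts the cause was not tested. A pseudocount of 0.1 gave 6884 genes and 0.5 gave 5938, in place of 5006.

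With stage means as units the differences in genes above 0.5 FPKM (-1085) and in the upper quartile (-4.20 FPKM) no longer passed. The share of the 100 highest genes passed only without LYF replicate 1, with a difference of 5.95 percentage points. The log2 fold change of GAPDH turned to 0.32 for F5 against LYF alone. Over all alternatives, the 15 named genes that were called kept their call in 794 of 885 gene and setting pairs, lost it with the direction kept in 90 and turned in 1.

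The labels do not say whether replicate numbers pair the samples. Deviations from the stage mean of same-numbered libraries of different stages correlated at 0.07 on average (-0.42 to 0.50, 108 pairs). Those of other numbers correlated at -0.03. Within a stage the deviations cancel, so the second average is tied to the first and is no separate evidence. The first was not tested, so pairing is not decided here. With the replicate number as a block 5002 genes were called. The mitochondrial difference of -8.66 percentage points also passed a permutation test within replicate number (adjusted p = 5e-05), which by design leaves the difference itself unchanged. Counts per gene were not available, so low genes cannot be weighed by them. Stages are not independent of age of the follicle, and 3 libraries per stage limit what can be said of F5 against LYF.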
